A study of Mus musculus with 12 samples.

Results

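Matricellular proteins are secreted into the extracellular matrix without building its fibres, and 10 genes for such proteins and for the matrix glycoprotein fibronectin were followed in mouse hearts. The 10 genes were tenascin C (Tnc), the thrombospondins Thbs1, Thbs3 and Thbs4, the CCN family members Ccn1 (also Cyr61) and Ccn2 (also Ctgf), periostin (Postn), Sparc, fibronectin (Fn1) and Cilp. They were taken by name from a table of 13552 genes. The set was put together knowing that Tnc was lower, and Thbs1 not lower, in knock-in than in wild-type hearts after pressure overload, so differences of the members between those groups are given as a description with no test.

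The hearts came from male young adult mice of the C57BL/6 strain (C57BL/6J in the study's methods), and were collected 9 h after transverse aortic constriction (TAC), which raises the pressure load on the left ventricle, or after sham surgery. Wild-type (WT) mice were purchased. Knock-in (KI) mice carried the Bcl-xL S14A substitution on both alleles of Bcl2l1 in every tissue, a serine to alanine change at codon 14 that removes a phosphorylation site of this anti-apoptotic protein. They came from a line in which the selection cassette had been removed with CMV-Cre, and were not stated to be littermates of the WT mice. The WT mice and the KI mice each had 3 hearts from sham and 3 from TAC surgery, 12 in all, called WT sham, WT TAC, KI sham and, last, KI TAC hearts, and a mouse is named by its number in the labels. The gene-level table cannot show the codon change, so the genotype rests on the labels.

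Tenascin C, periostin, the thrombospondins and the CCN proteins bind integrins, proteoglycans and growth factors, and change how cells hold on to the matrix and respond to signals held there. The healthy adult heart makes little of several of them, and they are known to be made again by fibroblasts, vascular cells and loaded or injured myocardium. Ccn1 and Ccn2 are early target genes of the YAP-TEAD and SRF transcription factors. Thrombospondin 1 activates latent TGF-beta, and TGF-beta in turn raises transcription of Ccn2, Postn and Fn1.

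Levels are given in RPKM, a read density per exon length that takes the depth of each library into account, and fold changes are on the log2(RPKM + 1) scale, which understates changes of genes under about 1 RPKM. Library depth recovered from the table was 23651075 to 32454132 reads, so that even the lowest member value, Tnc in WT sham mouse 3, rested on 28 reads. A gene was tested if 3 or more mice had 1 RPKM or more of it (11240 genes). All 10 members passed this filter, but Tnc reached 1 RPKM in only 1 of 6 sham mice and Thbs4 in 2 of 6. These genes therefore entered through the TAC hearts, and their calls and the counts of members below are a description of the set, not support for it. Calls are at an adjusted p of 0.05 over all 11240 genes, from limma with the Benjamini-Hochberg method. The spread of a gene was estimated over all 4 groups, so that sham and TAC hearts share it.

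In sham hearts the members spanned a wide range, and their order per exon length was nearly the same in both genotypes. Sparc was the most abundant member at 153 ± 25.3 RPKM in WT sham and 195 ± 63.8 RPKM in KI sham hearts (SD, n = 3), followed by Ccn1, Ccn2, Fn1 and Cilp, none of which overlapped the next in WT sham hearts. Thbs3, Postn, Thbs1 and Thbs4 lay between 0.969 and 1.62 RPKM on average in WT sham hearts, and each overlapped its neighbour in that order. Tnc was the lowest at 0.171 ± 0.0204 RPKM (SD, n = 3). After TAC the order differed between the genotypes. In WT TAC hearts Cilp, Tnc, Postn and Thbs1 averaged 26.8 to 32.7 RPKM and overlapped each other, whereas in KI TAC hearts Thbs1 averaged 105 RPKM and the other 3 averaged 3.41 to 7.16 RPKM. The plot of levels by mouse shows every value.

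**Figure D1:**
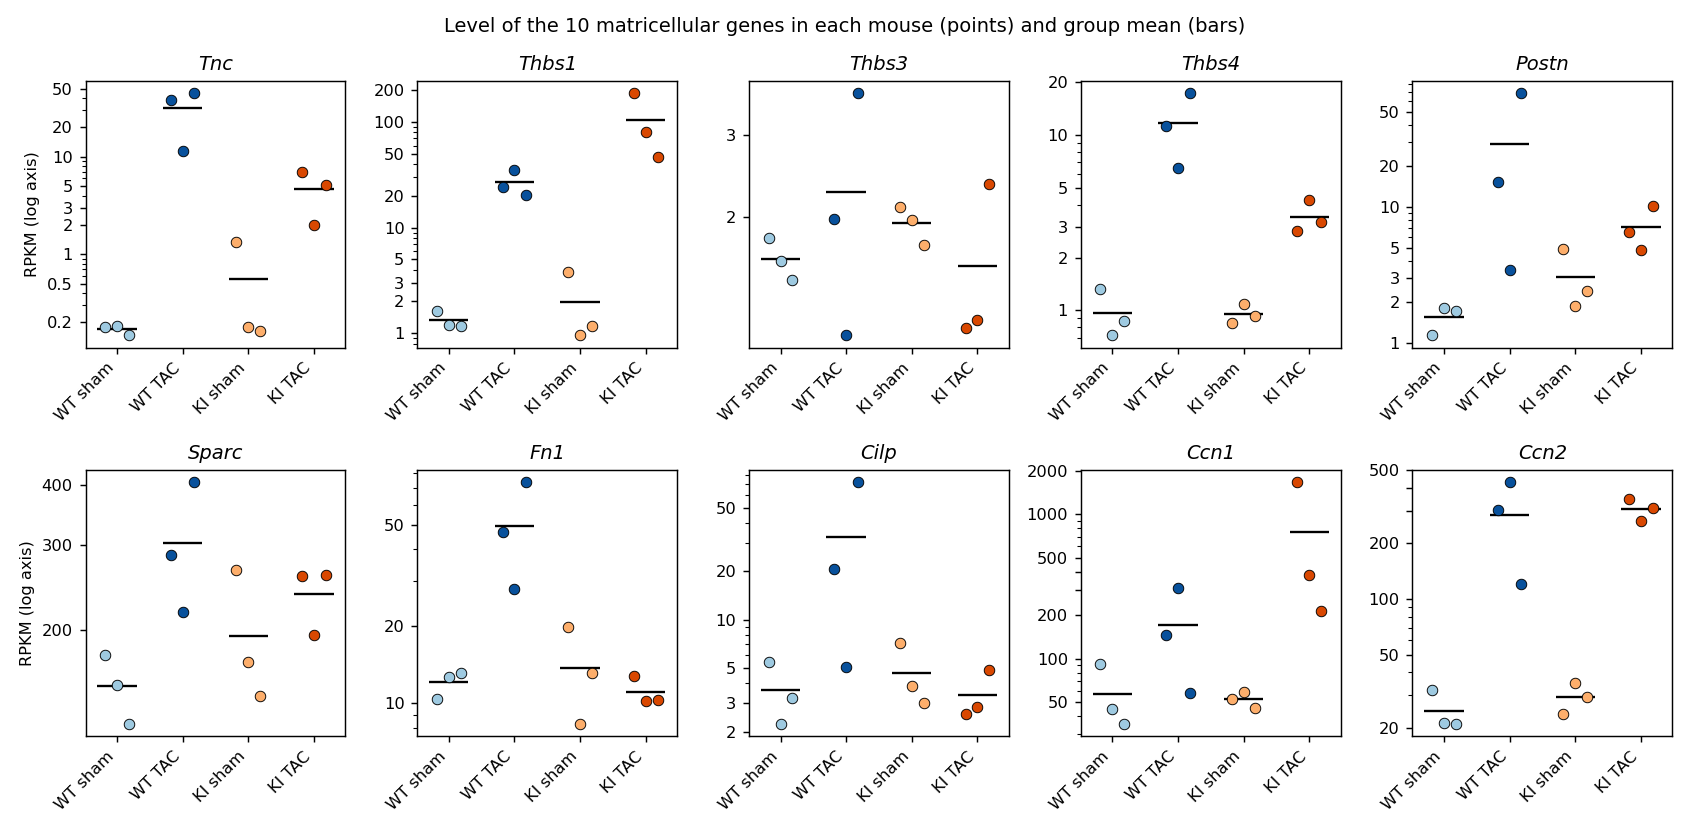
Level of each of the 10 genes in RPKM on a log axis, with 1 point per mouse in number order and a bar at the mean of each group of 3 mice. Tnc, Thbs4, Fn1 and Cilp are lower in every KI TAC mouse than in any WT TAC mouse, and Thbs1 is higher in every KI TAC mouse.

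Promoter sequences from RefSeq (GRCm38.p6) were held for 7 of the 10 members. The 250 bases before the start site of 4 of them are shown 5′ to 3′ on the gene's strand. They are Tnc, Thbs4 and Ccn1, which rose in KI hearts after TAC, and Postn, which did not pass the test there, since early target genes can share short motifs in this stretch. Capitals mark matches, on either strand, to AP-1 (TGANTCA), TEAD (GGAATG), CRE (TGACGTCA), the SRF CArG box, the E-box (CACGTG), the TATA box (TATAAA) and the GC box (GGGCGG). Tnc and Postn have a second annotated start each, and the window at the start nearest to that of the GENCODE gene is shown. The windows are chr4:64047016-64047265 (minus strand) for Tnc, chr13:92794819-92795068 (minus strand) for Thbs4, chr3:145649986-145650235 (minus strand) for Ccn1 and chr3:54360857-54361106 (plus strand) for Postn.
Tnc: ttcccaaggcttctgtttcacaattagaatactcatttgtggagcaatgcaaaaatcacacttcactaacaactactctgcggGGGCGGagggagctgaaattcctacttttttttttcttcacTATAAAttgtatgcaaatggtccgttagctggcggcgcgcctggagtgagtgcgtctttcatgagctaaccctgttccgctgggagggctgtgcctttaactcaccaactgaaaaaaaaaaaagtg
Thbs4: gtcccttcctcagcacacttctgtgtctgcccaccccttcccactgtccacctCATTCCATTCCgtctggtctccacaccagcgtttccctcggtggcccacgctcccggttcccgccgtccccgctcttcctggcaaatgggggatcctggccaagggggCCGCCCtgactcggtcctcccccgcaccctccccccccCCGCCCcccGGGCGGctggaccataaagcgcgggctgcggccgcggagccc
Ccn1: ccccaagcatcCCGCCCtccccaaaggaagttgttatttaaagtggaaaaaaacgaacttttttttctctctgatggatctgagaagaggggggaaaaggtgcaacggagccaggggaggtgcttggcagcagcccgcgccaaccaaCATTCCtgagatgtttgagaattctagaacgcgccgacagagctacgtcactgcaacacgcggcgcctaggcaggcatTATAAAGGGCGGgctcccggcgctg
Postn: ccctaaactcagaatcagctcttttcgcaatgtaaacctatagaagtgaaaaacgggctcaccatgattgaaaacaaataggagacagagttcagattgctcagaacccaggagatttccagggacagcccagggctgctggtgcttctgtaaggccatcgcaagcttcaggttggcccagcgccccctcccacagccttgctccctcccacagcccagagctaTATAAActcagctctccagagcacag

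The Ccn1 promoter holds a TEAD match beginning 103 bases before the start and a TATA box at 25 bases, directly followed by a GC box. Thbs4 holds 2 TEAD matches at 197 and 192 bases, which share 1 base, and 3 GC boxes. Of all 32851 promoters of this length 12.6% hold a TEAD match, 12.4% a TATA box and 32.7% a GC box. Tnc holds a TATA box match at 126 bases and a GC box at 167 bases, and Postn a TATA box at 26 bases. No AP-1, CRE, CArG box or E-box match was found in the windows of the 7 members, and over all promoters these stand in 6.75%, 1.55%, 1.47% and 6.02%. A match describes the letters only.

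WT hearts were compared 9 h after TAC and after sham surgery to find which members responded to pressure load. Of the 10 members 8 rose, namely Tnc, Thbs1, Thbs4, Ccn2, Postn, Fn1, Cilp and Sparc, against 6.96% of all genes tested, and no member fell. In 7 members every TAC mouse was above every sham mouse, as in 20.0% of all genes. The median log2 fold change of the members was 2.43, beside 0.035 for all genes tested. In KI hearts 5 members rose after TAC, namely Tnc, Thbs1, Thbs4, Ccn1 and Ccn2, against 8.57% of all genes, and in these 5 the groups did not overlap, as in 13.6% of all genes. The median log2 fold change was 1.10 for the members and -0.10 for all genes in KI hearts. The plot of fold changes sets the responses of the genotypes side by side.

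**Figure D2:**
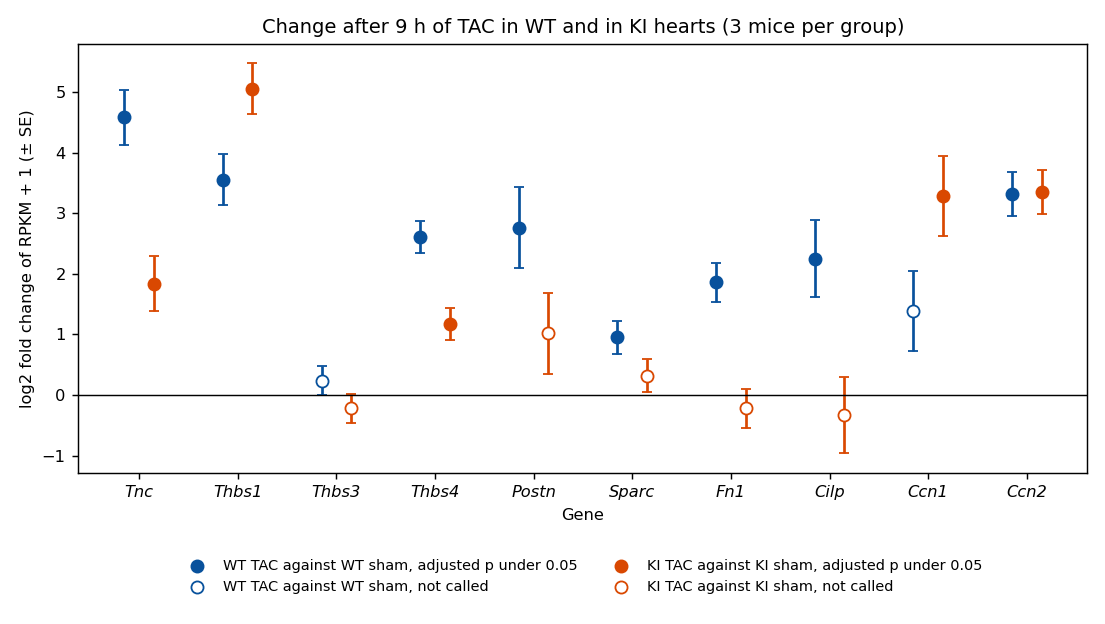
Difference in mean log2(RPKM + 1) between TAC and sham hearts (± SE from limma) for each member in WT (blue) and KI (orange) hearts, 3 mice per group, with filled symbols for an adjusted p under 0.05. Tnc stands highest in WT hearts at 4.58 and Thbs1 highest in KI hearts at 5.05, and Ccn2 has nearly the same value in both.

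Tenascin C, a large glycoprotein that weakens the hold of cells on fibronectin, showed the largest fold change of the members in WT hearts. The gene (ENSMUSG00000028364) lies on chromosome 4 at 63959785 to 64047015, minus strand, in GRCm38. Tnc was 0.180, 0.185 and 0.147 RPKM in WT sham mice 1, 2 and 3 and 38.1, 11.4 and 44.9 RPKM in WT TAC mice 7, 9 and 10. It was 1.33, 0.179 and 0.163 RPKM in KI sham mice 1, 2 and 3 and 7.04, 2.01 and 5.11 RPKM in KI TAC mice 5, 6 and 7. Each TAC group lay wholly above its sham group, and KI sham mouse 1 stood apart from the other 5 sham hearts. The rise in WT hearts had a log2 fold change of 4.58 (SE 0.45, adjusted p = 5.7e-05 from limma), and on plain RPKM the mean was 184-fold that of the sham hearts. In KI hearts the log2 fold change was 1.84 (SE 0.45, adjusted p = 0.00973 from limma). On plain RPKM the KI TAC mean was 8.47-fold that of the KI sham hearts, a mean that KI sham mouse 1 raised. The call in KI hearts held under all 13 alternatives of processing, test and mice, with log2 fold changes of 1.54 to 3.68.

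Thrombospondin 1 rose in both genotypes and reached its highest values in KI hearts. The gene (ENSMUSG00000040152) lies on chromosome 2 at 118111876 to 118127133, plus strand. Thbs1 was 1.61, 1.21 and 1.17 RPKM in WT sham mice 1, 2 and 3 and 24.3, 35.5 and 20.6 RPKM in WT TAC mice 7, 9 and 10. It was 3.77, 0.955 and 1.18 RPKM in KI sham mice 1, 2 and 3 and 188, 80.6 and 46.7 RPKM in KI TAC mice 5, 6 and 7. KI sham mouse 1 was again the highest sham heart, and the TAC groups did not overlap each other or any sham heart. The log2 fold change was 3.55 in WT hearts (SE 0.42, adjusted p = 0.00028 from limma) and 5.05 (SE 0.42, adjusted p = 1.27e-05 from limma) in KI hearts.

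Thrombospondins 3 and 4 are pentameric members of the family that lack the TGF-beta-activating part of thrombospondin 1. Thbs4 (ENSMUSG00000021702) lies on chromosome 13 at 92751590 to 92794818, minus strand. It was 1.32, 0.720 and 0.871 RPKM in WT sham mice 1, 2 and 3 and 11.3, 6.47 and 17.3 RPKM in WT TAC mice 7, 9 and 10. In KI hearts it was 0.846, 1.08 and 0.927 RPKM in sham mice 1, 2 and 3 and 2.82, 4.25 and 3.18 RPKM in TAC mice 5, 6 and 7. Both TAC groups lay above all sham hearts, and the WT TAC hearts lay above the KI TAC hearts. The log2 fold change was 2.61 in WT hearts (SE 0.26, adjusted p = 5.7e-05 from limma) and 1.17 (SE 0.26, adjusted p = 0.00547 from limma) in KI hearts. Thbs3 (ENSMUSG00000028047, chromosome 3, 89215180 to 89226837, plus strand) stayed between 1.11 and 3.70 RPKM in all 12 hearts. It passed the test in neither genotype, with log2 fold changes of 0.24 in WT (adjusted p = 0.555) and -0.22 in KI hearts (adjusted p = 0.538 from limma). Leaving out single mice moved these values between -0.064 (without WT TAC mouse 10) and 0.51 (without mouse 9) in WT hearts and between -0.43 (without KI TAC mouse 7) and -0.11 (without mouse 5) in KI hearts.

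The CCN proteins are small secreted proteins that bind integrins and heparan sulphate, and their genes had the highest mean levels of the members in KI TAC hearts, where the range of Ccn1 overlapped that of Sparc. Ccn2 (ENSMUSG00000019997) lies on chromosome 10 at 24595442 to 24598683, plus strand. It was 21 to 32.1 RPKM in WT sham and 23.7 to 35.0 RPKM in KI sham hearts. After TAC it was 304, 431 and 121 RPKM in WT mice 7, 9 and 10 and 346, 263 and 311 RPKM in KI mice 5, 6 and 7. The 2 TAC groups overlapped and both lay above every sham heart. The log2 fold change was 3.32 in WT (SE 0.36, adjusted p = 0.000153 from limma) and 3.35 (SE 0.36, adjusted p = 7.21e-05 from limma) in KI hearts.

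Ccn1 (ENSMUSG00000028195) lies on chromosome 3 at 145646976 to 145649981, minus strand. Of the promoters shown, its own and that of Thbs4 hold a TEAD match. It was 91.8, 44.9 and 35.4 RPKM in WT sham mice 1, 2 and 3 and 147, 310 and 58.2 RPKM in WT TAC mice 7, 9 and 10, so that these groups overlapped. In KI hearts it was 53.1, 58.7 and 45.9 RPKM in sham mice 1, 2 and 3 and 1676, 383 and 215 RPKM in TAC mice 5, 6 and 7, with no overlap. In KI TAC hearts its spread was the widest of the members in absolute terms, with an SD of 799 RPKM. The test called the rise in KI hearts (log2 fold change 3.28, SE 0.66, adjusted p = 0.00343 from limma) and did not call the difference in WT hearts (1.38, SE 0.66, adjusted p = 0.191), which was 0.80 without WT TAC mouse 9.

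Periostin, fibronectin, Cilp and Sparc are products of cardiac fibroblasts, and each passed the test in WT hearts and missed it in KI hearts. Whether these responses differ between the genotypes was not tested, since the members were chosen on that contrast. Postn (ENSMUSG00000027750, chromosome 3, 54361109 to 54391037, plus strand), a mark of activated fibroblasts, was 1.13, 1.79 and 1.71 RPKM in WT sham mice 1, 2 and 3 and 15.2, 3.41 and 68.6 RPKM in WT TAC mice 7, 9 and 10. It was 4.90, 1.87 and 2.41 RPKM in KI sham mice 1, 2 and 3 and 6.48, 4.78 and 10.2 RPKM in KI TAC mice 5, 6 and 7. WT TAC hearts spanned a wide range, and KI sham mouse 1 was above KI TAC mouse 6. The log2 fold change was 2.76 in WT (SE 0.67, adjusted p = 0.0181 from limma) and 1.02 (SE 0.67, adjusted p = 0.289) in KI hearts.

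Fn1 (ENSMUSG00000026193, chromosome 1, 71585520 to 71653200, minus strand), the main adhesive glycoprotein of the interstitium, was 10.4, 12.6 and 13.1 RPKM in WT sham mice 1, 2 and 3 and 47.0, 28.0 and 73.7 RPKM in WT TAC mice 7, 9 and 10. It was 19.8, 8.26 and 13.1 RPKM in KI sham mice 1, 2 and 3 and 12.7, 10.2 and 10.3 RPKM in KI TAC mice 5, 6 and 7. All WT TAC hearts were above all other hearts, and the KI TAC hearts lay within the range of the KI sham hearts. The log2 fold change was 1.86 in WT (SE 0.32, adjusted p = 0.00283 from limma) and -0.22 (SE 0.32, adjusted p = 0.658) in KI hearts.

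Cilp (ENSMUSG00000042254, chromosome 9, 65265180 to 65280605, plus strand), a matrix protein that binds TGF-beta1, was 5.42, 2.23 and 3.26 RPKM in WT sham mice 1, 2 and 3 and 20.7, 5.04 and 72.3 RPKM in WT TAC mice 7, 9 and 10. It was 3.02 to 7.13 RPKM in KI sham and 2.56 to 4.82 RPKM in KI TAC hearts. WT TAC mouse 9 was within the range of the sham hearts. The log2 fold change was 2.25 in WT (SE 0.63, adjusted p = 0.0328 from limma) and -0.33 (SE 0.63, adjusted p = 0.737) in KI hearts.

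Sparc (ENSMUSG00000018593, chromosome 11, 55394500 to 55423183, minus strand), which binds collagen, was 128 to 178 RPKM in WT sham, 218 to 406 RPKM in WT TAC, 146 to 267 RPKM in KI sham and 196 to 260 RPKM in KI TAC hearts. Its change in WT hearts was the smallest called among the members (log2 fold change 0.95, SE 0.27, adjusted p = 0.0382 from limma). KI hearts showed a difference of 0.32 (SE 0.27, adjusted p = 0.415). The calls of Postn, Sparc and Cilp in WT hearts were near the threshold. Without WT TAC mouse 7 their log2 fold changes were 2.79, 0.96 and 2.24, little moved, but the adjusted p-values were 0.0535, 0.102 and 0.0917, which left 5 members called, and the calls over all genes went from 1299 to 596 in that fit. The call of Postn was also lost without WT sham mouse 1 or 3, that of Sparc without WT sham mouse 1, 2 or 3 or WT TAC mouse 10, and that of Cilp without WT sham mouse 2 or 3 or WT TAC mouse 10, with adjusted p-values of 0.0502 to 0.136.

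Hearts of the same group differed, and in WT TAC hearts the members fell into 2 sets. There mouse 10 was the highest and mouse 9 the lowest for Tnc, Thbs3, Thbs4, Postn, Sparc, Fn1 and Cilp, while mouse 9 was the highest and mouse 10 the lowest for Thbs1, Ccn1 and Ccn2. In KI TAC hearts mouse 5 was the highest for Thbs1, Ccn1 and Ccn2 as well as for Tnc and Fn1, mouse 6 for Thbs4, and mouse 7 for Thbs3, Postn, Sparc and Cilp. KI sham mouse 1 was the highest of its group for 7 members, Tnc, Thbs1, Thbs3, Postn, Sparc, Fn1 and Cilp. Leaving out WT TAC mouse 10 lowered the log2 fold change in WT hearts from 2.76 to 1.74 for Postn and from 2.25 to 1.36 for Cilp, while leaving out mouse 9 raised them to 3.73 and 3.16. The map of all members against the sham mean shows these mice.

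**Figure D3:**
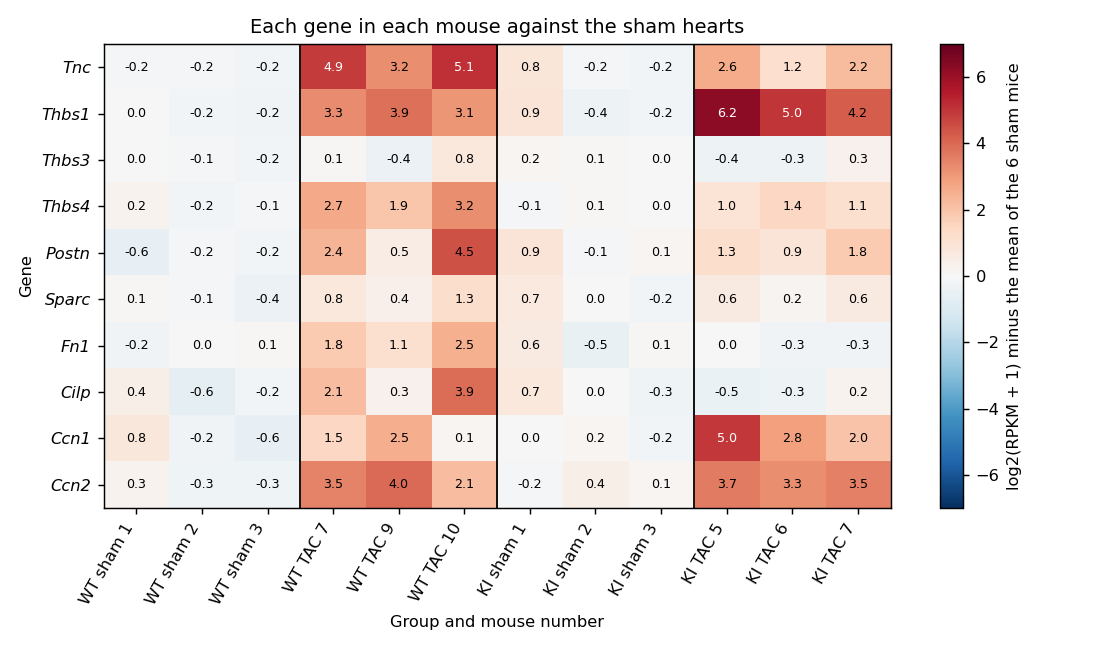
Each cell gives log2(RPKM + 1) of a member (rows) in a mouse (columns, by group and mouse number) minus the mean of the 6 sham mice, with red for higher and blue for lower values. The WT TAC columns differ in opposite ways, mouse 10 being highest for Tnc, Postn, Fn1 and Cilp and mouse 9 for Thbs1, Ccn1 and Ccn2.

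Markers of the cells a whole heart holds differed between the same mice. Over the 10 fibroblast markers the mean of log2(RPKM + 1), centred on all 12 hearts, was 0.31, -0.32 and 0.99 in WT TAC mice 7, 9 and 10, which is the order in which these mice stood for Tnc, Postn, Fn1 and Cilp. In KI TAC mice 5, 6 and 7 it was -0.50, -0.26 and 0.02, and there the mouse with the lowest score, mouse 5, had the highest Tnc and Fn1. The score was -0.27 to 0.083 in WT sham hearts and -0.11 to 0.37 in KI sham hearts, with KI sham mouse 1 at the top. The summed level of the fibroblast markers was 495 to 992 RPKM in WT TAC and 497 to 715 RPKM in KI TAC hearts, and 561 to 862 RPKM in WT sham hearts, so that these ranges overlapped. After TAC in WT hearts 8 of the 10 fibroblast markers had positive and 2 negative differences. Only Gsn passed the test there (log2 fold change -0.99). In KI hearts 2 were positive and 8 negative, and only Lum passed (-1.14). Between the TAC groups 2 were positive and 8 negative, none of them called.

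The 8 macrophage markers scored 0.063 to 0.90 in WT TAC and -0.14 to 0.14 in KI TAC hearts, against -0.32 to -0.089 in all sham hearts, again with WT TAC mouse 10 at the top. Adgre1 (0.83), Cd68 (1.22) and Fcgr1 (1.05) rose after TAC in WT hearts and Csf1r fell in KI hearts (-0.53), and Adgre1 (-1.15, adjusted p = 0.0135 from limma) and Csf1r (-0.91, adjusted p = 0.00913) were lower in KI than in WT TAC hearts, as was Fcgr1. Fcgr1 reached 1 RPKM in WT TAC hearts alone and passed the filter through them, so its calls are a description. After TAC all 8 had positive differences in WT hearts. Between the TAC groups the list did not move together. There 5 of the 8 had negative and 3 positive differences, those of C1qa (0.076), C1qb (0.16) and Mrc1 (0.11), none of them called. In KI hearts 6 of the 8 had positive differences after TAC, none called. The summed level of the macrophage markers was 98.8 to 177 RPKM in WT TAC, 97.1 to 121 RPKM in KI TAC, 79.2 to 102 RPKM in WT sham and 83.1 to 98.0 RPKM in KI sham hearts. Of the 8 neutrophil markers 5 were analysed here, and their summed level was 11.1 to 31.3 RPKM in WT TAC and 31.2 to 66.4 RPKM in KI TAC hearts, against at most 1.73 RPKM in sham hearts. Lcn2 made up most of the highest sums, with up to 62.1 RPKM beside at most 12.3 for S100a9, 6.13 for S100a8 and 2.06 for Csf3r. None of the 4 tested was called between the TAC groups, where Lcn2 was at 0.93 (adjusted p = 0.23 from limma), S100a9 at 0.92 (adjusted p = 0.109) and Csf3r at -0.35. All of them were under 1 RPKM in every sham heart and passed the filter through the TAC hearts. WT TAC mouse 9 had the highest neutrophil score of its group (1.09), and it was the mouse with the highest Thbs1, Ccn1 and Ccn2. The neutrophil markers Ly6g, Cxcr2 and Retnlg were not analysed here.

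The 8 smooth muscle and mural markers scored 0.18 to 0.60 in WT TAC, -0.19 to 0.21 in KI TAC and -0.30 to -0.023 in sham hearts. Of the mural markers Cnn1 (1.16) and Cspg4 (0.90) were called higher in WT hearts after TAC and lower in KI than in WT TAC hearts (-0.98 and -0.80), and the other 6 were not called in these comparisons. The 8 cardiomyocyte markers scored -0.49 to -0.19 in WT TAC, -0.22 to 0.28 in KI TAC and 0.052 to 0.29 in sham hearts, and their summed level was 14692 RPKM or more in every heart, as the label of heart tissue has it. Myh6 (-1.15) and Atp2a2 (-0.83) were called lower in WT hearts after TAC and Pln (-0.93) in KI hearts, and Tnni3 (0.95) and Myl2 (0.86) were higher in KI than in WT TAC hearts. After TAC 7 of the 8 had negative differences in WT hearts, and in KI hearts 4 were negative and 4 positive. Between the TAC groups 5 of the 8 had positive and 3 negative differences, with Actc1 at -0.24, Ryr2 at -0.20 and Pln at -0.28. Of the 6 atrial markers 2 were analysed here, Kcnj3 and Stard10, with scores of 0.26 to 0.67 in sham, -0.37 to -0.26 in WT TAC and -0.81 to -0.66 in KI TAC hearts, which did not overlap. Their summed level was 28.1 to 41.3 RPKM in sham, 19.1 to 21.2 RPKM in WT TAC and 16.6 to 17.8 RPKM in KI TAC hearts, and Kcnj3 was called lower after TAC in both genotypes and lower in KI than in WT TAC hearts (1.99-fold on the RPKM + 1 scale, adjusted p = 0.0303 from limma). Stard10 was not called in any of these comparisons and was at 0.14 between the TAC groups (adjusted p = 0.615 from limma), so that the lower score of KI TAC hearts came from Kcnj3.

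Of the 8 valve and tendon markers 4 were analysed here, and they scored 0.44 to 0.54 in WT TAC, 0.06 to 0.43 in KI TAC and -0.59 to -0.14 in sham hearts. Their summed level was 20.9 to 38.2 RPKM in WT TAC, 22.6 to 53.3 RPKM in KI TAC and 6.37 to 17.5 RPKM in sham hearts. Of the 3 tested only Prg4 rose, by 2.58 in WT and 3.64 in KI hearts. Scx was at 0.99 in WT and -0.29 in KI hearts and was not called, and Comp was called lower in KI hearts alone. None of the 3 was called between the TAC groups. The 6 red cell markers scored -0.75 to -0.22 in WT TAC and -0.0063 to 0.72 in sham hearts, with KI TAC hearts at -0.45 to 0.76, and none of the 5 tested was called. The summed level of the red cell markers was 74.9 to 114 RPKM in WT TAC, 97.8 to 258 RPKM in KI TAC and 134 to 244 RPKM in sham hearts. The 8 endothelial markers scored -0.0045 to 0.15 in KI TAC and -0.28 to 0.25 in sham hearts. WT TAC mice 7, 9 and 10 were at 0.079, 0.22 and -0.16, the order in which they stood for Thbs1, Ccn1 and Ccn2. In KI TAC hearts mouse 7 had the highest endothelial score, while mouse 5 was the highest for those genes. No endothelial marker was called after TAC in either genotype or between the TAC groups. The part of these cell types in the differences of the members was not tested. In whole hearts fewer cells of a type and less RNA per cell cannot be told apart. No marker of the lists analysed was at 0 in all hearts. Markers of adipocytes and most of those of platelets and epicardium were not analysed here.

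**Figure D4:**
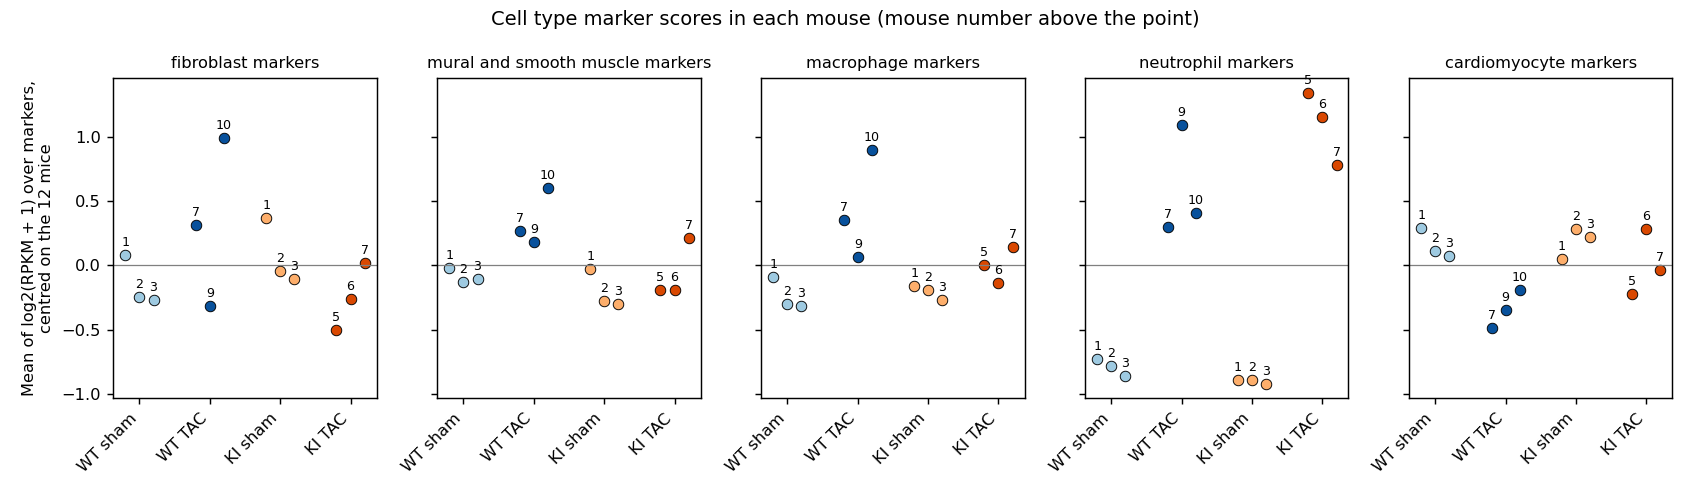
Mean of log2(RPKM + 1) over the markers of a cell type, centred on the 12 hearts, with 1 point per mouse and its number above it. In WT TAC hearts the fibroblast and macrophage scores are highest in mouse 10 and the neutrophil score in mouse 9, and neutrophil scores are higher in every TAC heart than in any sham heart.

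Without constriction the genotypes were compared in sham hearts to find whether the members already differed. None of the 10 members was called by limma, 0 had an unadjusted p under 0.05 (0.329% of all genes did), and limma-voom on recovered reads called 0 as well. The background was 0.0178% of all genes. The spread used came from all 4 groups, TAC hearts included. The absence of calls therefore does not show that levels were equal. In a fit of the 2 sham groups alone 0.0445% of all genes were called. The log2 differences, KI minus WT sham, ran from -0.011 for Ccn1 to 0.61 for Postn. Postn was higher in every KI sham mouse than in any WT sham mouse (2.08% of all genes were), at 3.06 ± 1.62 against 1.54 ± 0.360 RPKM (SD, n = 3). Without KI sham mouse 1 the difference of Postn was 0.31 and that of Tnc was 2.4e-05.

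Between KI TAC and WT TAC hearts the members diverged, and these differences were the ground on which the set was chosen. Tnc, the member named as lower, averaged 4.72 ± 2.54 RPKM (SD, n = 3) in KI TAC and 31.4 ± 17.7 RPKM in the WT mice, a log2 difference of -2.41 (SE 0.45). Thbs1, the member named as not lower, averaged 105 ± 74.0 RPKM in KI TAC and 26.8 ± 7.76 RPKM in the WT mice, a difference of 1.73 (SE 0.42). Within a mouse, which removes any scaling between libraries, the RPKM of Tnc was 1.57, 0.320 and 2.18 times that of Thbs1 in WT TAC mice 7, 9 and 10. The same quantity was 0.0374, 0.025 and 0.110 in KI TAC mice 5, 6 and 7 and 0.112 to 0.354 in the 6 sham mice. In WT TAC hearts the balance thus lay above that of every sham heart in mice 7 and 10 and within the sham range in mouse 9. In KI TAC mice 5 and 6 it lay below every sham heart. KI TAC mouse 7 was close to the lowest sham heart, WT sham mouse 1 (0.110 against 0.112), whose Tnc value rested on 45 reads. Both genes are those named in choosing the set, so the balance is a description too. The top of the sham range was KI sham mouse 1, and mouse 9 lay above the other 5 sham hearts, which were at 0.112 to 0.188.

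Of the other members, KI TAC hearts had less Cilp (log2 difference -2.30, SE 0.63), Fn1 (-1.97, SE 0.32) and Thbs4 (-1.44, SE 0.26). Tnc, Cilp, Fn1 and Thbs4 were the 4 members lower in every KI TAC mouse (19.4% of all genes were), and Thbs1 the 1 member higher in every KI TAC mouse (10.1% of all genes were). Nothing is read from these counts. Ccn1 was 1.89 (SE 0.66) higher, with overlapping groups. The differences of Postn (-1.12, SE 0.67), Sparc (-0.31), Thbs3 (-0.30) and Ccn2 (0.28) also had overlapping groups. Without WT TAC mouse 10 the difference of Postn was -0.10, that of Sparc -0.08 and that of Cilp -1.41, and those of Thbs3 and Ccn2 changed sign, to 0.0038 and -0.25. Without WT TAC mouse 9 the difference of Postn was -2.10, that of Sparc -0.53 and those of Thbs3 and Ccn2 -0.57 and 0.67. Without KI TAC mouse 5 the difference of Ccn1 was 1.04. Over all genes the median log2 difference between these groups was -0.12, which median-ratio scaling brought to -0.00074. Under that scaling Tnc was at -2.27, Fn1 at -1.82, Thbs4 at -1.31, Thbs1 at 1.89 and Cilp at -2.17.

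The interaction of genotype and surgery, the KI response minus the WT response on the log2 scale, was -2.74 (SE 0.63) for Tnc, -2.59 (SE 0.89) for Cilp, -2.07 (SE 0.45) for Fn1, -1.73 (SE 0.95) for Postn and -1.44 (SE 0.36) for Thbs4. It was 1.90 (SE 0.93) for Ccn1, 1.50 (SE 0.60) for Thbs1 and 0.03 (SE 0.51) for Ccn2. Single mice moved several of these values by over 1.5 times. Without KI TAC mouse 5 the interaction was 1.06 for Ccn1 and 0.97 for Thbs1. Without WT TAC mouse 10 it was -0.72 for Postn, -1.69 for Cilp and -0.49 for Ccn2, and without WT TAC mouse 9 it was -2.71 for Postn and 0.42 for Ccn2. The interaction contains the contrast used to choose the set, and no test of it is given for the members. Over all genes tested limma called 0 (0.00%) by interaction, with 1668 (14.8%) at an unadjusted p under 0.05.

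Other matricellular genes were counted to set the members beside their family. Of a list of 30 genes 23 were tested. In WT hearts 6 rose and 1 fell after TAC (6.96% and 4.60% of all genes), with a median log2 fold change of -0.012 over the 23. Osteopontin (Spp1), a ligand of integrins and CD44, rose from 0.0398 ± 0.0489 to 9.01 ± 6.13 RPKM (SD, n = 3; log2 fold change 3.10). Spp1 and Ccn4 were under 1 RPKM in every sham heart, and Vcan in every WT sham heart, so these genes passed the filter through the TAC hearts, Ccn4 and Spp1 chiefly through those of WT mice, and their calls are a description. The CCN family member Ccn4 rose by 2.11, the proteoglycan versican (Vcan) by 1.89 and Fstl1 by 1.57 on the log2 scale, and fibulin 1 (Fbln1) fell by 0.88. In KI hearts Vcan was the only gene of this list that rose (1.47), and Tnxb (-0.96), Vtn (-0.75), Comp (-0.61) and Fbln1 (-0.58) fell. Comp was at most 0.255 RPKM in KI TAC hearts and passed the filter through mice of the other groups, so its call is a description. Over all genes 14.7% fell in KI hearts, near the share of this list. Tnxb encodes tenascin X, an abundant relative of tenascin C that averaged 68.7 RPKM in WT sham hearts, where Tnc was the lowest of the members.

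Between the TAC groups, Tgfbi was lower in KI hearts (-0.73, adjusted p = 0.0257 from limma), as were Spp1 (-2.23) and Ccn4 (-1.69), which the filter kept for their level in WT TAC hearts. Over all genes 8.13% were called lower, and none of the 23 was higher. Spp1 averaged 0.917 ± 0.411 RPKM and Ccn4 1.08 ± 0.843 RPKM (SD, n = 3) in KI TAC hearts, against 9.01 and 5.47 RPKM in WT TAC hearts. The plot of this list shows that Vcan passed the test in both genotypes and Spp1 and Ccn4 in WT hearts. The difference in response was tested as an interaction for all 78 genes of the 4 lists, and 0 were called by limma, with 19 at an unadjusted p under 0.05 and 0 called by limma-voom.

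**Figure D5:**
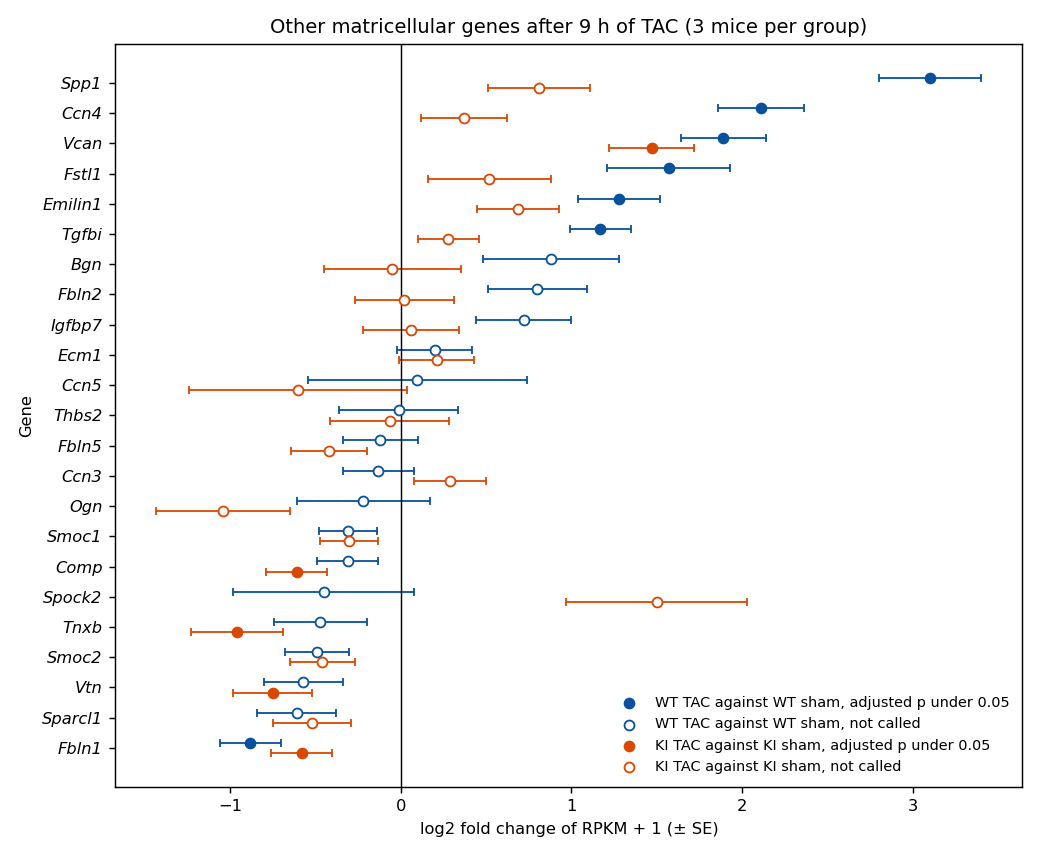
Difference in mean log2(RPKM + 1) between TAC and sham hearts (± SE from limma) for the 23 other matricellular genes in WT (blue) and KI (orange) hearts, 3 mice per group, with filled symbols for an adjusted p under 0.05. Spp1 is at 3.10 in WT hearts, and Vcan is filled in both genotypes at 1.89 and 1.47.

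Receptors of these proteins were counted next. Of 16 receptor genes tested 6 rose and 0 fell in WT hearts, where 6.96% of all genes rose and 4.60% fell. In KI hearts 7 rose and 2 fell, where 8.57% of all genes rose and 14.7% fell, so that the count of falls was near the background. Itgam, which rose in both genotypes, and Itgb3, which rose in KI hearts, were under 1 RPKM in every sham heart and passed the filter through the TAC hearts, so these counts are a description. The fibronectin receptor subunit Itga5 rose from 32.1 ± 2.31 to 143 ± 76.1 RPKM in WT hearts (log2 fold change 1.97, adjusted p = 0.00394 from limma) and from 33.0 ± 7.06 to 207 ± 85.5 RPKM in KI hearts (2.56, adjusted p = 0.00035; SD, n = 3). Its partner Itgb1 rose by 1.16 and 1.15. Syndecan 4 (Sdc4), a heparan sulphate proteoglycan that binds fibronectin, rose in KI hearts by 2.06 and differed between the TAC groups, with more in KI mice (1.19, adjusted p = 0.0152 from limma, against 2.92% of all genes called higher). Syndecan 3 (Sdc3) fell in KI hearts (-0.80), and Sdc3 (-1.13), Itgav (-0.89), Lrp1 (-0.87), Sdc1 (-0.76) and Itgb5 (-0.67) were lower in the KI mice of the TAC groups.

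Of 24 regulators in the TGF-beta, SRF and YAP pathways 4 rose in WT hearts, the YAP target Ankrd1 (2.83), the latent TGF-beta binding protein Ltbp2 (2.52), Tgfb2 (2.18) and the receptor Tgfbr1 (0.74), against 6.96% of all genes. In KI hearts Ankrd1 (2.63), Tgfb2 (1.33) and Tgfbr1 (1.05) rose and Ltbp1 (-1.16) fell, against 8.57% and 14.7% of all genes. Ankrd1 averaged 933 ± 24.5 RPKM (SD, n = 3) in WT TAC and 889 ± 133 RPKM in KI TAC hearts. Ltbp2 (-1.94, adjusted p = 0.0209 from limma, groups overlapping) and Smad3 (-1.05, adjusted p = 0.0319), a transducer of TGF-beta signals, were lower in KI mice when the TAC groups were compared.

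Of 15 enzymes that cut or cross-link the matrix 8 rose in each genotype, against 6.96% of all genes in WT and 8.57% in KI hearts, and none fell. The collagen cross-linking enzyme Lox rose by 3.33 in WT and 2.94 in KI hearts on the log2 scale, and the versican-cutting protease Adamts4 by 2.24 and 2.53. Mmp3 was under 1 RPKM in every sham heart and Adamts4 in every WT sham heart, so that they passed the filter through the TAC hearts and the counts are a description. Adamts1, a protease that cuts versican, rose in KI hearts from 12.8 ± 3.99 to 185 ± 107 RPKM (log2 fold change 3.61, adjusted p = 0.000497 from limma; SD, n = 3) and was 2.04 higher than in WT hearts after TAC (adjusted p = 0.0287), where WT TAC mouse 9 overlapped the KI hearts. Adamts15 (-0.94) and Bmp1 (-0.61) were lower in KI TAC hearts. Of the 78 genes of the 4 lists 14 were called between the TAC groups, where 11.0% of all genes were. Without WT TAC mouse 7 the count was 2, and that over all genes went from 1242 to 162 (1.44%). The calls between the TAC groups rest on a spread shared with the sham hearts. In a fit of the 2 TAC groups alone 2 genes of the lists and 216 (1.92%) of all genes were called.

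The genes whose levels ran most like those of Tnc over the 12 hearts, by Pearson correlation of log2(RPKM + 1), were Nmrk2 (0.984), Slc1a4 (0.978), Tubb2b (0.977), Dpysl3 (0.973) and Nfam1 (0.969). Those most like Thbs1 were Azin1 and Litaf (both 0.990), Il4ra (0.989), Nop58 (0.986) and Bag2 (0.984). These values describe 12 hearts that share 4 groups and carry no test. Nmrk2 had log2 fold changes of 2.80 in WT and 1.44 in KI hearts, and Azin1 of 1.58 and 1.95. The order of the genotypes is that of Tnc and Thbs1, which the choice by correlation brings with it.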

How the data were processed

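RNA of 12 whole mouse hearts was measured, 3 in each of 4 groups taken from the labels for genotype and treatment. Libraries were strand-specific and made from poly(A)-selected RNA. The authors' notes name Trimmomatic 0.39, HISAT2 2.2.1, HTSeq 0.6.1, edgeR 3.18.1, limma 3.32.10 and R 4.1.1, with the build GRCm38. How the deposited values were made from the counts, and how genes were filtered, are not given in the sources used here. The deposited values behave as RPKM: times the exon lengths of GENCODE M21 (13546 of 13552 identifiers found), each mouse summed to 997702 to 1002226, and 97.3% to 98.1% of low values were whole multiples of 1 read (within 0.05 of a read). This gave depths of 23651075 to 32454132 reads on genes.

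From these values log2(RPKM + 1) was computed, genes that reached 1 RPKM in 3 or more mice were kept, and limma 3.58.1 (lmFit, eBayes with trend) in R 4.3.3 was fitted to all 12 mice in 4 groups, with Benjamini-Hochberg adjustment over 11240 genes and a threshold of 0.05. The model was tested on simulated data. Per-mouse tables and plots were made with Python 3.11.15, pandas 2.3.3, numpy 2.4.6 and matplotlib 3.10.9. Replicates are separate mice by their labels.

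The members and the lists (other matricellular genes, receptors, TGF-beta, SRF and YAP regulators, enzymes, cell type markers) were chosen with earlier results of these data known. The text names all members, at most 4 called genes with the largest change in each list and comparison described, and the 5 genes most correlated with Tnc and with Thbs1, predicted genes passed over. Fbln1, Sdc3, Sdc1 and Itgb5 were named where that rule did not, after their values were seen. Tnc, Thbs1, Thbs3, Fn1 and Ccn2 share 176 to 665 exon bases with genes of the opposite strand, and the strand setting of the counting is not given in the sources used here. Sequences are from RefSeq, GRCm38.p6. Other settings tried were no filter, a filter of 10 reads in each mouse, a pseudocount of 0.1, quantile normalization, median-ratio scaling, limma-voom on recovered reads, a fit of the 2 groups compared, each mouse left out in turn, and a replicate block in sham hearts.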

Additional observations from a re-analysis of the deposited data

Results flagged for a closer look

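Fn1 stood out because every WT TAC mouse was above the mean of the WT sham mice and every KI TAC mouse was below the mean of the KI sham mice. No fall was shown in KI hearts, where the log2 fold change was -0.22 (SE 0.32, adjusted p = 0.658 from limma) with overlapping groups, and 0.073 without KI sham mouse 1. The KI response minus the WT response was -2.07 on the log2 scale (SE 0.45). This difference was not tested, because the set was chosen on a contrast that it contains. Leaving out single mice kept it between -2.42 and -1.74. No member had a mouse flagged as an outlier, since groups of 3 are not tested for outliers.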

How the results depend on the processing

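In WT hearts 8 members were called after TAC under the settings of pseudocount, filter, scaling and limma-voom, 5 in a fit of the 2 groups compared, and 5 to 8 with 1 mouse left out. The calls of Tnc, Thbs1, Thbs4, Fn1 and Ccn2 in WT hearts, and those of Tnc, Thbs1, Thbs4, Ccn1 and Ccn2 in KI hearts, held under all 13 alternatives. In KI hearts the count was 5 throughout, and 6 in the fit of the 2 groups compared, where Postn was added (adjusted p = 0.0294). Of the other genes of the lists, 14 were called between the TAC groups, 9 under median-ratio scaling, 2 in the fit of the 2 groups compared, and 2 to 19 with 1 mouse left out (in WT TAC, 2 when mouse 7 and 6 when mouse 10 was absent, and in KI TAC, 3 when mouse 6 and 9 when mouse 5 was absent). By interaction 0 to 7 were called with 1 mouse left out, namely 7 when mouse 9 of WT TAC, 3 when mouse 7 of KI TAC and 1 when mouse 10 of WT TAC was absent, where 240 (2.14%), 182 (1.62%) and 8 (0.0712%) of all genes were called. Fits with a mouse left out hold fewer mice, and the cause of these changes was not tested. No result changed direction past the threshold under any alternative run.

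The share of calls that were higher moved with the scaling between libraries, from 60.2% to 51.1% in WT hearts, from 36.8% to 51.5% in KI hearts and from 26.4% to 51.6% between the TAC groups under median-ratio scaling, and to 48.1%, 48.3% and 46.0% under quantile normalization. The median of all genes in KI hearts moved from -0.10 to 0.003 and that of the interaction from -0.13 to -0.0018 under median-ratio scaling. A fit with the replicate block of mouse number in the 6 sham mice called 0 members. The labels do not say whether a shared number pairs the sham mice. Deviations of same-numbered sham mice correlated at -0.225, -0.302 and 0.440, and those of other pairs at -0.35 to 0.434, which cannot settle it. The TAC groups share only the number 7. Tnc in 5 sham hearts rested on 28 to 45 reads.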
